A study of Mus musculus with 7 samples.

Results

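N6-methyladenosine (m6A) peaks of 59 genes of the extracellular matrix and of matrix remodelling were described in injured mouse muscle and in C2C12 cells, a mouse myoblast line. The genes were taken from a fixed list by name, older symbols included, out of 21900 protein-coding genes of the annotation, and all 59 were found there. They comprise collagens, laminins and their linkers, fibronectin and elastic fibre proteins, proteoglycans, matricellular proteins, collagen-processing enzymes, metalloproteinases and their inhibitors. In MeRIP-Seq, fragments of mRNA are pulled down with an antibody against m6A (IP) and sequenced beside the input, and a stretch with more IP than input reads is called as a peak.

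The muscle libraries came from C57BL/6 mice at day 2 after injection of cardiotoxin (CTX) into the tibialis anterior, following 5 days of tamoxifen. In the knockout (cKO), Pax7CreERT2 deleted floxed METTL3, the m6A methyltransferase, and the control (CTL) carried Pax7CreERT2 with wild-type METTL3. Since Cre is driven from Pax7, deletion was aimed at muscle stem cells, whereas the labels give the source as muscle and the cell type as muscle stem cell. Each genotype had 1 IP and 1 input library, and C2C12 had 2 IP libraries and 1 input library, both IP libraries being labelled as knockout and the input as normal, so their METTL3 status is unsettled. METTL3 was depleted in C2C12 cells elsewhere in the study, and whether these IP libraries came from such cells is not given. The cells are called myoblasts, while the labels also describe differentiation of C2C12 cells without saying for which libraries, and how many animals were pooled is not given.

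The deposited muscle table has 5412 peaks in 3983 genes, with 1 fold enrichment of IP over input per peak for the table as a whole. All of its peaks passed a differential test between the genotypes at an FDR of about 0.05, so a gene that is not listed may still carry m6A. No column gives a value per genotype, and the columns of that test were not used, so cKO and CTL are not compared here. The C2C12 table has 5433 peaks with positions and annotation only. There are no replicate values, so no difference below has a replicate check. Depth is unknown for every library and neither table holds expression values, so whether an unlisted gene was expressed was not tested. In bulk muscle, fewer cells of a type and less RNA per cell cannot be told apart.

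The extracellular matrix of muscle consists of a basement membrane around each fibre, built from laminins and collagen IV joined by nidogens and perlecan, and of an interstitial network of fibrillar collagens, collagen VI and fibronectin. Muscle stem cells lie beneath the basement membrane. After injury, matricellular proteins such as tenascin C and thrombospondins are deposited transiently while metalloproteinases open and remodel the old matrix. Much of this matrix is made by fibroblast-like cells, with contributions from myoblasts, endothelial cells and macrophages.

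The 59 members were listed often in both tables, but they were chosen with earlier results of these data known. How far that choice shaped the shares was not tested. Of 158 further matrix genes, described below, 25.3% were listed in muscle and 20.3% in C2C12. In muscle, 33 of the 59 had at least 1 peak, which is 55.9% (95% Wilson interval 43.3 to 67.8), where 16.9% of all protein-coding genes were listed. In C2C12, 32 of the 59 were listed (54.2%, interval 41.7 to 66.3), against 17.6% of protein-coding genes. Both tables listed 23 of the 59 (39.0%), against 7.32% of protein-coding genes. The members are long genes, with a median span of 45068 bp against 17146 bp for all protein-coding genes, and protein-coding genes listed in muscle had a median span of 28950 bp. Those listed in C2C12 had a median span of 22513 bp. Within the list, the members with a muscle peak had a median span of 45068 bp and those without one of 44098 bp, and for C2C12 the medians were 48660 bp and 45068 bp. The part of gene length and of expression in these shares was not tested.

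The shared 23 made up 69.7% of the members in muscle and 71.9% of those in C2C12. For protein-coding genes as a whole, 43.2% of those in muscle were also in C2C12 and 41.4% of those in C2C12 were also in muscle. Muscle alone listed 10 members, namely Col5a3, Eln, Ctgf, Mmp2, Mmp9, Mmp19, Timp3, Adamts2, Adamts4 and Adamts9. C2C12 alone listed 9, namely Col1a2, Col3a1, Col8a1, Col12a1, Fn1, Bgn, Sparc, Spp1 and Mmp14. The 17 members in neither were Col4a1, Col7a1, Col11a1, Col15a1, Lama2, Lama4, Lama5, Lamb1, Lamb2, Agrn, Fbn2, Dcn, Lum, Tnxb, Postn, Loxl2 and Timp1.

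**Figure D1:**
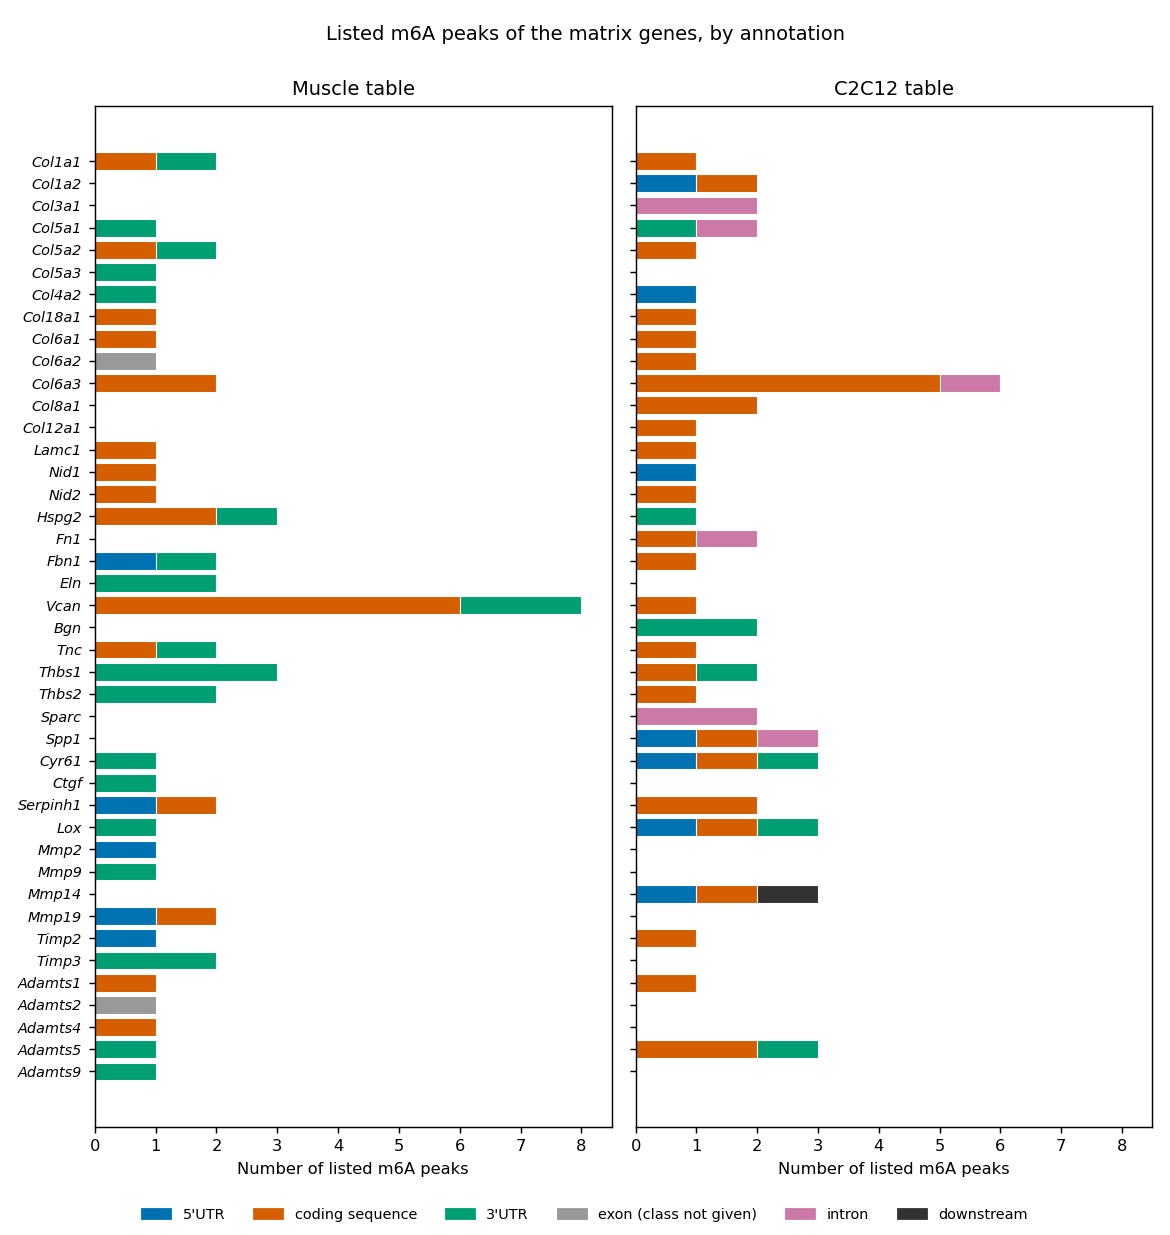
Number of listed m6A peaks (horizontal axis) of each of the 42 matrix genes found in at least 1 table, in the muscle table (left) and the C2C12 table (right), with colours for the annotation of the peaks. Vcan stands out in muscle with 8 peaks and Col6a3 in C2C12 with 6.

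The methyltransferase complex prefers short motifs such as GGAC. The muscle table lists the GGAC sites of each peak, and RefSeq sequence (GRCm38.p6) around gene starts was used to show such a site where a peak reaches the start of a matrix gene. For 6 members with a window at their start (Col1a2, Col4a2, Nid1, Cyr61, Mmp14 and Timp2), a peak covered part of the first 50 transcribed bases. The C2C12 peaks among these begin upstream of the start, from -67 bp in Mmp14 to -125 bp in Col4a2. In muscle, the Timp2 peak begins at -42 bp and the Nid1 peak at 9 bp. In 3 of these 6, the first 50 bases hold GGAC on the transcribed strand, and 18.9% of 32851 RefSeq start windows do. The stretches of 30 bases around these sites are given 5′ to 3′, with the motif in capitals.

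Nid1 (chr13:13437602-13437631, plus strand, bases 1 to 30 of the gene): gggaggtgaggagGGACtgcggaggggcgt

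Col4a2 (chr8:11312819-11312848, plus strand, bases 15 to 44): gtctccaaggggaGGACcctgcggcgcggg

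Mmp14 (chr14:54431602-54431631, plus strand, bases 5 to 34): tgggagaagggagGGACcaaaggagagcag

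The Nid1 site is among those listed in the muscle table. The Col4a2 and Mmp14 sites lie where the C2C12 table places a 5′UTR peak. The match of letters does not show that the A of these sites is methylated.

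Fold enrichment in muscle was modest for most matrix genes and very high for a few. Coordinates of muscle peaks are on GRCm38. Taking the highest peak of each gene, the 33 members had a median fold enrichment of 11.2 (quartiles 4.41 and 26.7), and all 3803 genes matched to RefSeq had a median of 19.8 (quartiles 6.91 and 77.6). Of the 33, 11 (33.3%, interval 19.8 to 50.4) reached 19.8 or more. By peaks rather than genes, the median was 8.36 over 54 member peaks and 12.9 over all peaks. Over 50-fold there were 7 of the 54 member peaks. Of these, 6 lay in coding sequence, with 2 in Vcan and 1 each in Adamts1, Mmp19, Col6a1 and Tnc, and the remaining peak lay in the 3′UTR of Hspg2. Values over 50-fold were common in muscle, since the lowest of the 7, in Vcan at 52.5-fold, ranked 1281 of all 5412 peaks. The share of coding sequence among all peaks over 50-fold is not given here. The p-value of the peak was listed as 0 for 11 of the 54 member peaks (20.4%) and for 17.2% of all peaks, and the highest p of a member peak was 0.00081.

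**Figure D2:**
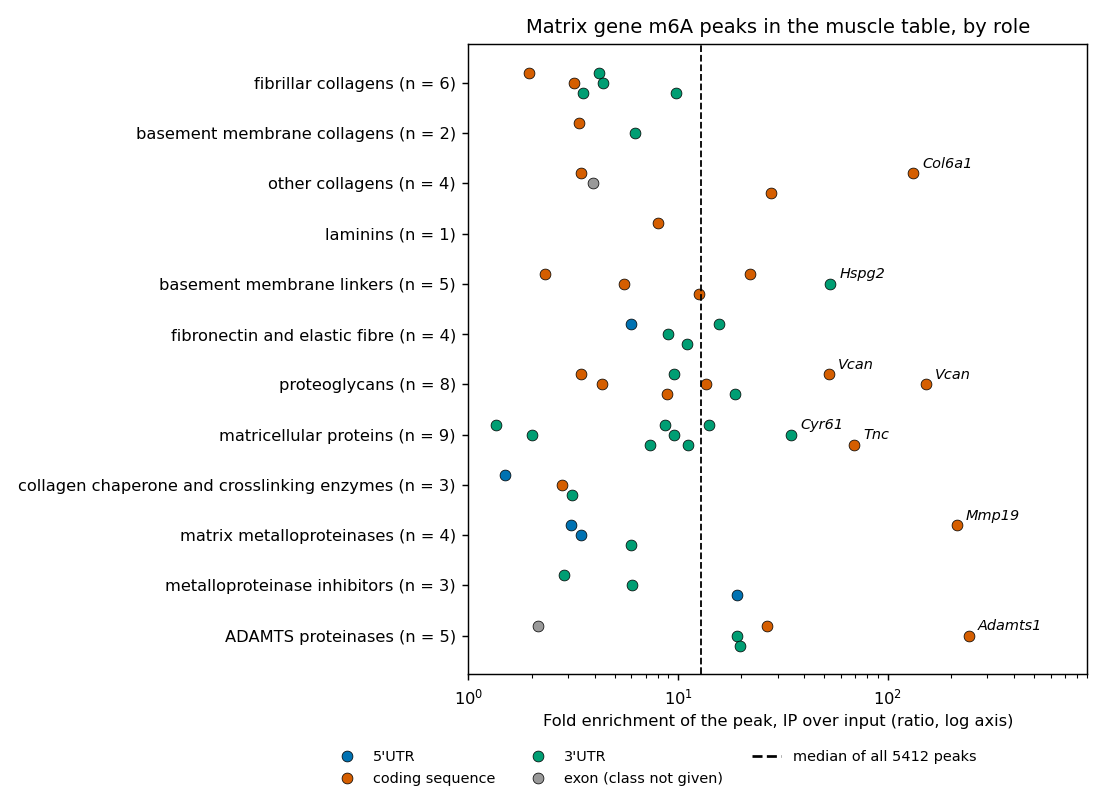
Fold enrichment of IP over input (horizontal log axis, ratio) of the 54 matrix gene peaks in the muscle table, 1 point per peak, by role of the gene (vertical axis) and annotation (colour). The dashed line marks the median of all peaks, 12.9, and the named peaks are the 8 highest, of which Adamts1 (245) and Mmp19 (214) lead.

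Among the fibrillar collagens, 4 of 7 were listed in muscle and 5 of 7 in C2C12, and no muscle peak exceeded 10-fold. Col1a1, the main chain of collagen I, had a 3′UTR peak of 660 bp at chr11:94952053-94952712 with a fold enrichment of 3.52 and 4 GGAC sites. Its second peak, in the coding sequence, had a fold enrichment of 3.19, also with 4 sites. Both have a p listed as 0. Col5a1 and Col5a2, whose products regulate fibril diameter, differed. Col5a1 had 1 peak of 1081 bp in the 3′UTR (9.8-fold, 3 sites), the highest of the fibrillar collagens. Col5a2 had a 3′UTR peak at 4.2-fold without a site and a coding peak of 210 bp at 1.94-fold with 5 sites. That coding peak has 23.8 GGAC sites per kb, rank 6 of all muscle peaks, while its fold enrichment ranked 5240 of 5412. Col5a3 had a 3′UTR peak at 4.41-fold. In C2C12, Col1a2, the partner chain of Col1a1, had a 5′UTR peak whose middle lies 15 bp from the start and a peak in a coding exon. Both C2C12 peaks of Col3a1, the chain of collagen III, are annotated to introns, 20514 and 37024 bp from the start.

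Of the network-forming and basement membrane collagens, Col4a2 and Col18a1 were listed in both tables and Col4a1 and Col15a1 in neither. Col4a2, 1 of the main collagen IV chains, had a 3′UTR peak at 6.21-fold in muscle, while its C2C12 peak of 291 bp sat at the other end of the gene, 20 bp from the start. The first base of that peak lies at -125 bp relative to the start of Col4a2. The Col4a1 gene is transcribed in the opposite direction from the same region, and the table assigns the peak to Col4a2 only. Col18a1, the source of endostatin, had a coding peak of 150 bp at 3.37-fold with 2 sites.

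Collagen VI forms beaded filaments around the basement membrane, and mutations in its chains cause muscle disease. All 3 of its listed chains were in both tables. Col6a1 had 1 coding peak of 931 bp, at chr10:76709212-76710142, with a fold enrichment of 133 and 3 GGAC sites, rank 685 of 5412 peaks. Col6a2 had 1 peak at 3.94-fold with 3 sites, annotated as exon without a class. Col6a3 had coding peaks at 27.9-fold without a site and at 3.46-fold with 3 sites. The folds of the 3 chains, which assemble into a single protein, ran from 3.46 to 133. In C2C12, Col6a3 had 6 peaks covering 1963 bp, rank 40 of 3966 genes by covered length, and 16 genes, Col6a3 included, had 6 or more peaks. Of these 6, 5 are in coding exons and 1 in an intron. Col8a1 (2 peaks) and Col12a1 (1 peak), a collagen associated with fibrils, were listed in C2C12 coding exons and not in muscle.

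Laminins, the cross-shaped trimers of the basement membrane, had 1 of 6 members in each table (16.7%), near the 16.9% and 17.6% of all protein-coding genes. The member was Lamc1, the γ1 chain, in both. Its muscle peak of 330 bp lies in the first coding part of the gene, 404 bp from the start, with a fold enrichment of 8.01 and 2 sites. Its C2C12 peak lies at the other end, 111138 bp from the start in a gene of 113865 bp. Lama2, the chain that is deficient in a congenital muscular dystrophy, had no peak in either table, and its span of 635907 bp is the longest of the list.

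The molecules that join the laminin and collagen IV networks were listed in 3 of 4 cases in both tables, with Agrn in neither. Hspg2, which encodes perlecan, had a 3′UTR peak of 1231 bp at chr4:137569273-137570630 with a fold enrichment of 53.3 and 8 sites, together with coding peaks at 5.55-fold and 2.33-fold. Nid2, which encodes nidogen 2, had a coding peak at 22.0-fold with 4 sites. Nid1 had a peak at 12.6-fold, annotated as coding sequence, that begins 9 bp from the start of the gene, shown above, with 6 sites in 270 bp.

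Fibronectin (Fn1), the provisional matrix on which stem cells and myoblasts move, had no muscle peak and 2 C2C12 peaks, 1 in a coding exon and 1 in an intron. Fbn1, which encodes the microfibril protein fibrillin 1, had a 3′UTR peak of 1318 bp at 15.7-fold and a 5′UTR peak of 450 bp at 5.98-fold. The 5′UTR peak holds 10 GGAC sites, the most of any member peak, but it overlaps a listed peak of Gm9913 on the opposite strand. The library kit keeps the strand, but whether reads were counted by strand is not given in the sources used here, so the gene behind this peak is uncertain. Eln, which encodes elastin, had 3′UTR peaks at 11.1-fold and 9.0-fold in muscle and none in C2C12.

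Vcan, which encodes versican, a large proteoglycan of provisional matrix, had the most peaks of any matrix gene in muscle. Its 8 peaks cover 4857 bp, and 7 genes in the table, Vcan included, have 8 or more. In the coding sequence it had 6 peaks, with fold enrichments of 152, 52.5, 13.6, 8.85, 4.34 and 3.43. The highest of these, at chr13:89689303-89690620, is 1318 bp long with 4 sites, and all 6 lie between 89688375 and 89703988. The 3′UTR had peaks at 18.8-fold and 9.6-fold. Some of the 8 peaks are close neighbours, such as the coding peaks that end at 89689243 and begin at 89689303. Whether such neighbours are parts of 1 enriched stretch was not tested. The peak at 52.5-fold holds no GGAC site, nor does that at 3.43-fold. In C2C12, Vcan had 1 peak of 200 bp. Bgn, which encodes biglycan, showed the reverse, with 2 3′UTR peaks in C2C12 and none in muscle. Dcn and Lum, 2 small leucine-rich proteoglycans of fibroblasts, were in neither table.

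Matricellular proteins signal to cells rather than bear load. Tnc, which encodes tenascin C, had a coding peak over 3 exon blocks of 1973 bp in all at 69.2-fold with 7 sites, the longest member peak, and a 3′UTR peak at 8.7-fold. Its single C2C12 peak of 1305 bp is the longest of the members there, rank 139 of 3966 by covered length. Cyr61 and Ctgf, both targets of the Hippo pathway, had 3′UTR peaks in muscle at 34.7-fold and 14.1-fold with 2 sites each. In C2C12, Cyr61 had 3 peaks, in the 5′UTR, a coding exon and the 3′UTR, although the gene spans only 3015 bp, and Ctgf had none. Thbs1, which encodes an activator of latent TGF-β, had 3′UTR peaks at 9.59-fold, 2.0-fold and 1.35-fold, and the last is the lowest of the member peaks. Thbs2 had 3′UTR peaks at 11.2-fold and 7.33-fold in muscle and a coding exon peak in C2C12. Spp1, which encodes osteopontin, had 3 C2C12 peaks and Sparc, a collagen-binding glycoprotein, 2 intron peaks, and neither was listed in muscle.

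Of the 12 role groups, the collagen chaperone and crosslinking enzymes had the lowest top fold, 3.11. Serpinh1, the collagen chaperone HSP47, had a coding peak at 2.79-fold and a 5′UTR peak at 1.5-fold in muscle, and Lox, the crosslinking lysyl oxidase, had a 3′UTR peak at 3.11-fold. None of these 3 peaks holds a GGAC site, and they were 120 or 121 bp long. Serpinh1 had 2 coding exon peaks in C2C12 covering 1158 bp, rank 189 of 3966, and Lox had 3 peaks there, in the 5′UTR, a coding exon and the 3′UTR. The C2C12 table gives no fold enrichment, so the strength of these peaks could not be compared with muscle.

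Proteinases of the matrix carried both of the highest folds. All 5 ADAMTS genes among the 59 members were listed in muscle. Adamts1, which cleaves versican, had a coding peak of 749 bp at chr16:85795265-85796013 with a fold enrichment of 245 and 2 sites, rank 339 of 5412 peaks and gene rank 324 of 3803. Adamts4, an aggrecanase, had a coding peak at 26.7-fold, Adamts5 and Adamts9 had 3′UTR peaks without a site at 19.2-fold and 19.8-fold, and Adamts2, which trims procollagen, had a peak at 2.14-fold. Mmp19 had a coding peak of 809 bp, at chr10:128798498-128799447 on GRCm38, with a fold enrichment of 214 and 3 sites, and a 5′UTR peak at 3.46-fold. The gelatinases followed far below, with 3.07-fold in the 5′UTR of Mmp2 and 6.0-fold in the 3′UTR of Mmp9. Mmp14, the membrane-bound activator of Mmp2, was in C2C12 alone, with 3 peaks covering 1387 bp, rank 118 of 3966. The longest of these, 615 bp, is annotated as downstream, and the others as 5′UTR (244 bp) and coding exon (528 bp). The middle of the downstream peak lies 9715 bp from the start, within the 10859 bp that Mmp14 spans in RefSeq. Among the inhibitors, Timp2 had a 5′UTR peak at 19.2-fold that covers the start of the gene, and Timp1 was in neither table. The Timp3 peaks, at 6.05-fold and 2.87-fold, overlap listed peaks of Syn3, which is transcribed from the opposite strand, so they are uncertain in the same way.

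In muscle, 25 of 54 member peaks were in the 3′UTR (46.3%, interval 33.7 to 59.4), against 48.0% of all peaks, and 22 in the coding sequence (40.7%, interval 28.7 to 54.03), against 31.9%. Peaks given only as exon were fewer among the members, 2 of 54 (3.70%, interval 1.02 to 12.5), than among all peaks, 14.9%. All members are protein-coding, whereas all peaks include those of noncoding genes, which have no coding sequence or UTR. Class shares over protein-coding genes alone are not given here. In C2C12, 32 of 56 were in coding exons (57.1%, interval 44.1 to 69.2), against 52.6%, and 8 in the 3′UTR (14.3%, interval 7.42 to 25.7), against 25.9%. The 5′UTR held 5 member peaks in muscle (9.26%, interval 4.02 to 19.9), against 5.14% of all peaks, and 7 in C2C12 (12.5%, interval 6.19 to 23.6), against 6.29%. The median fold enrichment of coding peaks was 10.7 for members and 26.65 for all peaks, and the median length of these peaks was 389.5 bp and 600 bp. In the 3′UTR the medians lay closer, at 9 for members and 9.94 for all peaks, with lengths of 300 bp and 301 bp.

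**Figure D3:**
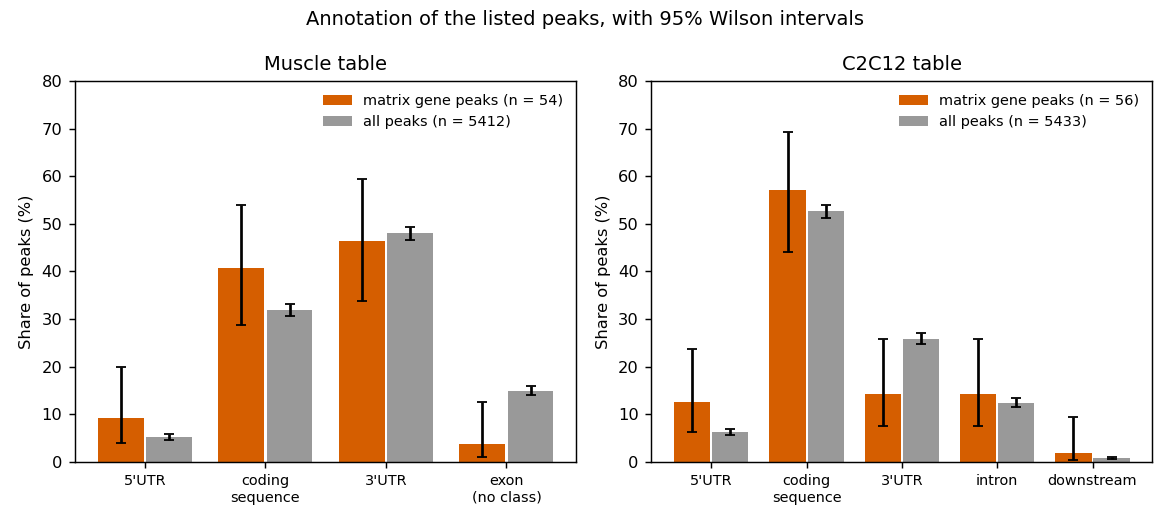
Share of peaks (vertical axis, %) in each annotation class for matrix gene peaks and for all peaks of the muscle table (left) and the C2C12 table (right). Bars carry 95% Wilson intervals, which cover counting error only. The intervals of the matrix gene bars are wide, as for the 3′UTR in muscle (33.7 to 59.4%).

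GGAC sites were listed in most matrix gene peaks. At least 1 site was listed in 39 of 54 member peaks (72.2%, interval 59.1 to 82.4) and in 70.6% of all peaks. From random letters at equal frequencies, cut to the lengths of these peaks, 72.3% of member peaks and 74.5% of all peaks would hold one. The density was 4.69 sites per kb in member peaks, 4.63 in all peaks and 3.91 in such random sequence. By class, a site was listed in 17 of 22 member coding peaks (77.3%) and in 16 of 25 in the 3′UTR (64.0%), against 84.5% and 62.0% for all peaks of these classes. The densest member peaks were those of Col5a2 (coding), Fbn1 (5′UTR) and Nid1, the last 2 at 22.2 sites per kb, rank 8 of all muscle peaks. Of the 18 member peaks with a fold enrichment of 12.9 or more, 14 held a site (77.8%), as did 85.8% of all peaks that high.

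Most listed members had a single peak, 20 of 33 in muscle and 17 of 32 in C2C12. Of those in C2C12, 15 of 32 had 2 or more peaks (46.9%, interval 30.9 to 63.6), against 25.8% of all listed genes, and they covered a median of 504 bp against 341 bp. In muscle, 13 of 33 had 2 or more (39.4%, interval 24.7 to 56.3), against 25.7% of all listed genes, a share inside that interval, with a median covered length of 482 bp against 510 bp.

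The position of the peaks along the gene could be compared between the tables for the 23 shared members. The C2C12 coordinates are not on GRCm38, since only 9.3% of those peaks lie inside the span of their gene on that build, whereas 95.6% of the muscle peaks do. The distance from the start of the gene was therefore used, taken from the C2C12 table and, for muscle, from the most upstream RefSeq start, which may not be the same start in every gene. On this scale, 12 of the 23 members (52.2%) had a C2C12 peak that overlapped a muscle peak by at least 1 bp, and so did 872 of 1602 protein-coding genes in both tables (54.4%). The 12 were Col1a1, Col6a1, Col6a3, Nid1, Nid2, Hspg2, Fbn1, Tnc, Thbs1, Cyr61, Serpinh1 and Adamts1. The peaks over 50-fold in Adamts1, Col6a1, Tnc and Hspg2 were among the overlapping ones. In Adamts1 the muscle peak ran from 7100 to 7848 bp from the start, and the C2C12 peak of 394 bp was centred at 7504 bp. In Col6a1 the muscle peak ran from 15902 to 16832 bp, and the C2C12 peak of 470 bp was centred at 16356 bp. The Fbn1 peaks overlap although the muscle table calls the position 3′UTR and the C2C12 table a coding exon. The annotation also differs in Nid1, where the overlapping peaks are called coding sequence in muscle and 5′UTR in C2C12.

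The other 11 shared members had peaks apart from each other. The single C2C12 peak of Vcan, centred 49203 bp from the start, missed the nearest muscle peak by 798 bp, and the gap was 392 bp for Col5a2 and 732 bp for Col5a1. For Adamts5 it was 1470 bp. For Lox, Col6a2, Col18a1, Thbs2, Timp2, Lamc1 and Col4a2 the gap ran from 2162 bp in Lox to 135358 bp in Col4a2. It was 110454 bp in Lamc1, and in these last 2 genes the tables list opposite ends. In Timp2 the muscle table lists the start and the C2C12 table a coding exon 51599 bp from it.

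**Figure D4:**
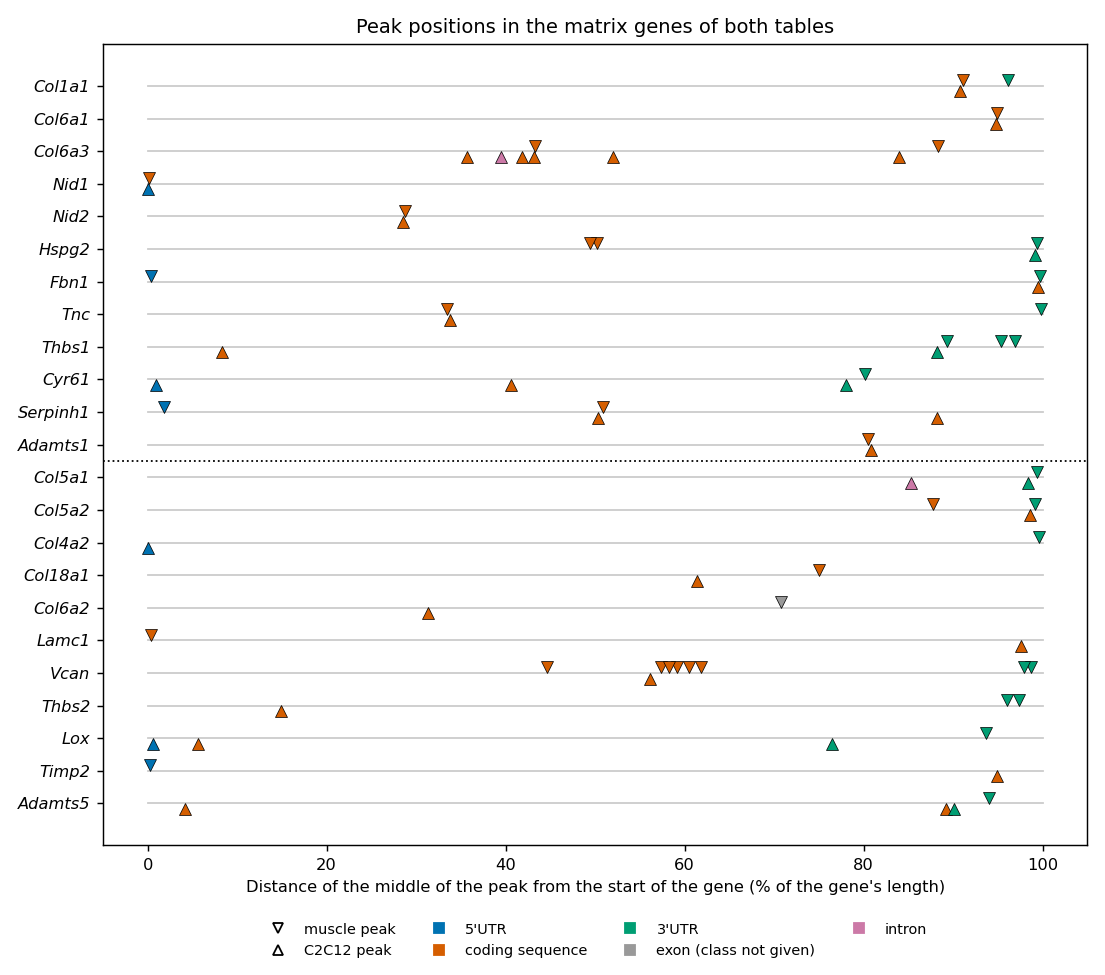
Position of the listed peaks along the 23 matrix genes of both tables, as the distance of the middle of the peak from the start of the gene in percent of its length (horizontal axis). Triangles pointing down are muscle peaks, triangles pointing up are C2C12 peaks, and colours give the annotation. The 12 genes above the dotted line have overlapping peaks, and the 11 below it do not.

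A further 158 matrix genes, from a list that covers the remaining collagens, fibulins, proteoglycans, modifying enzymes and proteinases, was also looked up. In muscle 40 of them had a peak (25.3%, interval 19.2 to 32.6) and in C2C12 32 had one (20.3%, interval 14.7 to 27.2), with 17 in both. The 17.6% of all protein-coding genes lies inside the C2C12 interval, and the 16.9% in muscle below that of muscle. None of the 26 other collagen genes was in the muscle table, and Col8a2 alone was in C2C12. Of the 20 enzymes that modify collagen, 7 were in muscle and 11 in C2C12, among them the lysyl hydroxylases Plod1 and Plod2 in C2C12 only. Of the 40 further proteinases and inhibitors, 12 were in muscle and 6 in C2C12. The highest folds in muscle were those of Adamts15 (252, 3′UTR, 13 sites), Tgm2 (229, coding, 7 sites) and Hyal1 (173, coding, 4 sites). In C2C12, Fbln2, which encodes fibulin 2, had the most peaks of these genes, 3. Of those with 2 peaks, Emilin2 and Adamts7 covered the most bases, 1040 bp and 694 bp.

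Genes that mark other cell types were present in the muscle table as well. It lists 5 of 9 muscle markers (Pax7, Myod1, Myog, Des and Ttn), 3 of 6 fibro-adipogenic markers (Pdgfra, Cd34 and Tcf7l2), 3 of 7 macrophage markers (Ptprc, Itgam and Mrc1) and 1 of 5 endothelial markers (Cdh5). The C2C12 table lists 3 of 9, 2 of 6 (Pdgfra and Pdgfrb), 0 of 7 and 0 of 5 of these markers. Of all protein-coding genes, 16.9% were listed in muscle and 17.6% in C2C12. The marker sets are small and were not tested against these shares. Listing of a marker gives no level, so the label of muscle stem cell could not be checked against expression. The part of these cell types in the matrix gene peaks was not tested.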

How the data were processed

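m6A MeRIP-Seq was analysed for 4 muscle libraries and 3 C2C12 libraries, grouped by their titles. The submitters' processing notes name TopHat, MACS2 and mm10, with no role or version. How the peaks were filtered and the IP libraries combined is not given in the sources used here. The authors deposited 1 peak table for muscle, giving for each peak a ratio of IP to input called fold enrichment, a p-value and a count of GGAC sites, and 1 for C2C12 with positions only. Columns of their differential test (log2 fold, p and FDR) were not used, except to read the threshold that all rows pass. A damaged FDR column was also left out. Columns of single samples left out numbered 0.

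Genes were matched to RefSeq (GRCm38) by symbol, by older symbols that name 1 gene or by transcript, and 3811 of 3983 muscle genes and 3967 of 3970 C2C12 transcripts matched. Of 104 listed GGAC sites inside RefSeq start windows, 90 had GGAC at or within a few bases of the listed position. Positions are 1-based. For values per gene, the highest of its peaks by fold enrichment was taken. No test was made, since no values per library exist, so a difference has no replicate check. Counts, medians and 95% Wilson intervals are given beside those over all features. The interval and the expected GGAC share were tested on simulated data.

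The members and lists were chosen with earlier results of these data known. Values were given for the 10 highest members, those with 2 or more peaks, the extremes of each role and those in both tables. Alternatives to the filter on fold enrichment, the choice of peak, the annotation classes, the symbols and the background were tried. Python 3.11.15, pandas 2.3.3, numpy 2.4.6, scipy 1.17.1 and matplotlib 3.10.9 were used.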

Additional observations from a re-analysis of the deposited data

How the results depend on the processing

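Of 29 alternatives, 26 left the counts within 1.5 times, and the shares, medians and densities within the 95% interval, of the values given. Among the 26, those that limited the background to genes of the other table only repeat the 23 shared members. They are therefore no check on the counts of 33 in muscle and 32 in C2C12. The other 3 kept only muscle peaks with a fold enrichment of 12.9 or more, the overall median. The members listed in muscle then fell from 33 to 15 and those in both tables from 23 to 11. The 15 are 45.5% of the listed members, while 59.5% of all listed genes keep a peak under this filter. The density of GGAC sites in member peaks went from 4.69 to 3.66 per kb, below the 3.91 of random sequence, with 18 member peaks left. The density over all muscle peaks that high is not given here, and the cause was not tested. The comparison of positions and its alternatives were added after seeing the data, and counting peaks within 1000 bp of each other as shared gave 15 members instead of 12.

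DRACH in place of GGAC and a recount of GGAC in the peaks were not run, because no genome sequence was used here. No replicate was left out, and no paired analysis was possible because each genotype has 1 library of each kind and peaks carry no value for single libraries. Depth is unknown, and its part in which genes were listed was not tested.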
